A study of Homo sapiens with 12 samples.

Results

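The untreated state of LN229 was described from the 6 libraries that the labels give as control, with no treatment, out of 12 in the series. LN229, a line derived from a human glioblastoma, is described by the study as carrying wild-type IDH. The cells were grown as 1 line in Dulbecco's modified Eagle medium with fetal bovine serum and antibiotics, and messenger RNA was sequenced from total RNA of each culture. The paper states that the control cells of this sequencing received vehicle over the same hours as the treated cells received metformin. Untreated here therefore means without metformin. The libraries with metformin were not used here, and no treatment effect was estimated. The methods speak of independent experiments, so each library is taken for a separate culture of a single line in a single medium. The spread between libraries holds differences between cultures and between RNA and library preparations, which cannot be told apart. It says nothing of other glioblastomas.

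Glioblastoma is the most malignant tumour of the glial lineage. Astrocytes are known for the filament protein GFAP, for glutamate uptake and for water channels, and oligodendrocyte progenitors for the transcription factors OLIG1 and OLIG2 and for the receptor PDGFRA. Tumours of this kind commonly lose the cell cycle inhibitors encoded by CDKN2A and CDKN2B, restart the telomerase gene TERT and activate growth factor receptors such as EGFR. Culture in serum is known to weaken the neural features of glioma cells. The levels below are in TPM, the transcript abundance unit that divides the reads of a gene by its exon length and scales each library to the same total, so that levels can be compared between genes.

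Each library held between 19583535 and 21836186 reads on exons (median 20816197). Of 19989 genes with an exon model, 11289 (56.5%) had a mean of at least 1 TPM and are called detected. A further 3249 (16.3%) were low, and 5451 (27.3%) were at the floor, meaning at most 3 exon reads summed over the 6 libraries. Among the floor genes, 3689 had no exon read at all and 1762 had 1 to 3. In a floor gene of median length, 3 reads over the 6 libraries would be a mean of 0.027 TPM. This is a limit of counting only. A level of 10 TPM was reached by 7713 genes, 100 TPM by 1509 and 1000 TPM by 129. At least 1 TPM in each of the 6 libraries was reached by 10947 genes, and 717 genes reached it in some libraries but not in others.

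The 6 libraries were not equally alike. Counting noise alone would give a chi-square of about 1 per degree of freedom between a pair of libraries. The values ran from 2.31 between libraries 1 and 6 to 45.6 between libraries 3 and 6, so no library was a second copy of another. Correlations of log2(TPM + 1) across genes, which are not independent replicates, ran from 0.994 to 0.999 over the 15 pairs. On the first principal component, which held 76.1% of the variance, libraries 1, 5 and 6 scored -15.1, -14.2 and -16.2, and libraries 2, 3 and 4 scored 12.2, 28.5 and 4.76. The share of intron reads separated the same libraries, with 5.30%, 5.14% and 5.52% in libraries 1, 5 and 6 and 6.41%, 7.36% and 6.40% in libraries 2, 3 and 4 (mean 6.02% ± 0.854, SD, n = 6). The labels give no batch for these libraries, and the part of this difference in the levels below was not tested.

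The differences between libraries were graded by gene length. Among 320 genes of 10 kb or more of exon, the median log2 ratio to the mean of the 6 libraries was 0.44 in library 3 and 0.19 in library 2. It was -0.24, -0.23 and -0.22 in libraries 1, 5 and 6. Among 231 genes under 1 kb, the order was turned round, with -0.16 in library 3 and 0.12 in library 1. An edgeR fit of the exon counts found that 7385 of 12073 genes (61.2%) varied among the 6 libraries beyond counting noise at an adjusted p under 0.05, with a biological coefficient of variation of 10.8%. Without library 3 the fit called 5987 genes and gave a coefficient of 7.92%.

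**Figure D1:**
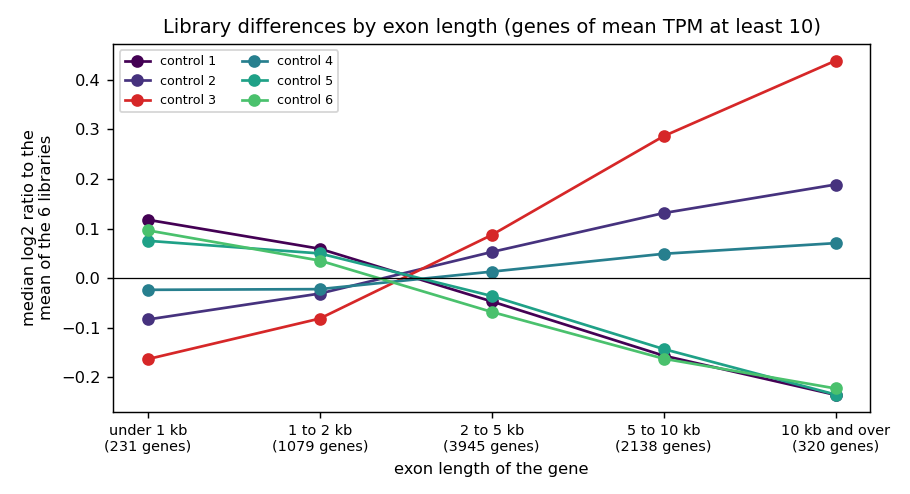
Median log2 ratio of TPM to the mean of the 6 control libraries (y axis) for genes of mean TPM at least 10, binned by exon length in kb (x axis); each line is 1 library and the numbers under the axis are genes per bin. Library 3 (red) lay lowest in the shortest bin at -0.16 and highest in the longest at 0.44, and libraries 1, 5 and 6 ran the other way.

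The most abundant transcripts were those of the mitochondrial genome, of ribosomes and of the cytoskeleton. MT-CO3, a subunit of cytochrome c oxidase, led with 21102 to 25226 TPM and a mean of 23351 ± 1455 (SD, n = 6). All 13 mitochondrial protein-coding genes and 81 of 84 ribosomal protein genes were detected. Ribosomal protein genes took 15.8% to 19.6% of all TPM, with the lowest share in library 3. The elongation factor EEF1A1 stood at 8893 ± 223 TPM, the ribosomal protein gene RPS18 at 8579 ± 728 and the glycolytic enzyme GAPDH at 7813 ± 220. ACTB, the main cytoplasmic actin, stood at 5885 ± 82.4 TPM, and its spread was small. The 20 most abundant genes held 20.04% of all TPM, and between 179 and 274 genes were enough to hold 50% of it. The larger number was that of library 3. Among genes of other kinds stood the iron store FTL at 5609 ± 557 TPM, the actin binding peptide TMSB10 at 3326 ± 353 and the metallothionein MT2A at 3089 ± 390.

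The label glioblastoma was set against markers of the cell types of the brain. Of 16 astrocyte markers, 7 (43.8%) were detected, 3 were low and 6 (37.5%) were at the floor. Over all genes 56.5% were detected and 27.3% were at the floor. GFAP, the filament that defines mature astrocytes, had 23 exon reads in all and between 0 and 0.169 TPM per library (median 0.0487). AQP4, the water channel of astrocyte endfeet, and the gap junction gene GJB6 had no exon and no intron read, and S100B had 1 exon read. The glutamate transporter SLC1A2 had 5 exon reads. Several transcripts used to define a mature astrocyte were thus absent or nearly so, while others of the list were detected. GJA1, the main astrocyte connexin, had 36.0 to 56.9 TPM (median 41.8), with its highest level in library 3. The glutamine synthetase gene GLUL stood at 41.2 ± 3.48 TPM, and the gliogenic factor SOX9 at 21.1 ± 3.12. The folate enzyme ALDH1L1 held a narrow range of 10.0 to 11.0 TPM, and the glutamate transporter SLC1A3 stood at 7.03 ± 1.23 (SD, n = 6 each).

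Markers of oligodendrocyte progenitors were split in the same way, with 4 of 11 (36.4%) detected against 56.5% of all genes. OLIG2 had 6.63, 7.58 and 8.97 TPM as lowest, median and highest values, and its mean was 7.72 ± 0.957. OLIG1, its neighbour on chromosome 21, had no exon read, where 3 reads would be a mean of 0.0275 TPM. The proteoglycan gene CSPG4 (7.25 ± 1.41 TPM), the receptor GPR17 (7.22 ± 0.863) and the homeobox gene NKX2-2 (4.20 ± 0.667) were detected, each in all 6 libraries. PDGFRA, the receptor that marks these progenitors, averaged 0.0142 TPM, and SOX10 averaged 0.0389 TPM. BCAN, which encodes the brain proteoglycan brevican, gave 133 exon reads beside 5638 intron reads, so its exon level of 0.705 ± 0.238 TPM describes little of the signal over the gene. Of 11 markers of mature oligodendrocytes, CNP (61.1 ± 1.67 TPM) and the myelin gene regulator MYRF (2.34 ± 0.212) were detected. MOG, MAG, MOBP, ERMN, OPALIN and UGT8 were at the floor, a share of 54.5% against 27.3% over all genes.

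Neuronal markers were mostly under 1 TPM, with 4 of 16 detected, against 56.5% of all genes. A further 5 were low, and 7 (43.8%) were at the floor, against 27.3% of all genes. TUBB3 stood at 110 ± 4.28 TPM, but its model overlaps another gene and most of its reads were not unique, so its level is uncertain. The neurofilament gene NEFL had 22.3 to 26.1 TPM, RBFOX3, which encodes the neuronal nuclear antigen NeuN, had 5.57 to 7.35 TPM, and GAD1 averaged 2.68 ± 0.419. MAP2, with 1 exon read, and DCX, STMN2, GAD2, SLC32A1 and ELAVL4, with none, stand against them. UCHL1, a deubiquitinase abundant in neurons and in many tumour lines, stood at 1433 ± 79.4 TPM. It was named here after its level had been seen.

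Of 15 genes used as marks of neural stem cells, 7 (46.7%) were detected, against 56.5% of all genes. The integrin ITGA6 averaged 95.7 ± 20.6 TPM, the filament gene NES 52.4 ± 6.77 and the receptor NOTCH1 29.6 ± 7.06. HES1, a target of NOTCH signalling, stood at 16.3 ± 1.20 TPM. SOX2, the stem cell factor most used to mark glioblastoma stem cells, had 1 exon read over the 6 libraries, where 3 reads would be 0.0249 TPM. SOX1 had none, and FABP7, MSI1, POU3F3 and SALL2 had 1 each. PROM1, which encodes CD133, averaged 0.0355 TPM. The transcription factors of the list were thus mostly at the floor. The exceptions were HES1, PAX6 at 2.68 ± 0.363 TPM and POU3F2, low at 0.219 TPM.

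**Figure D2:**
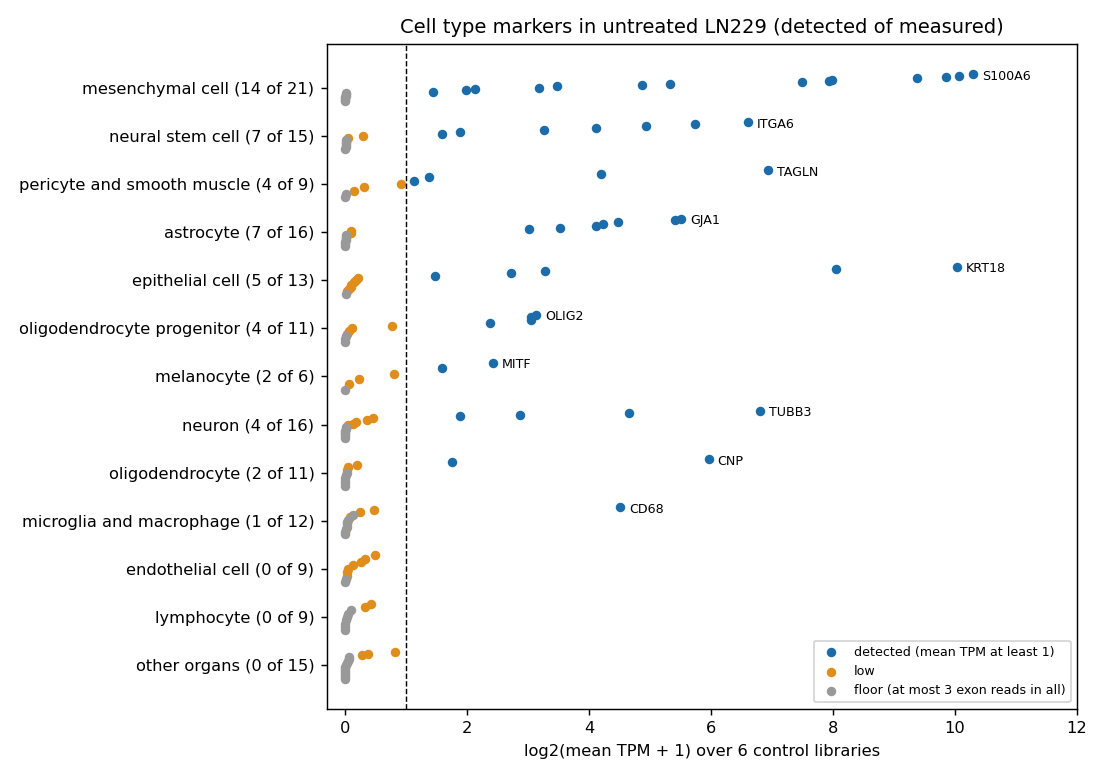
Mean level of each marker gene over the 6 control libraries as log2(mean TPM + 1) (x axis), by list (y axis); blue points are detected, orange low and grey at the floor of at most 3 exon reads, the dashed line is 1 TPM and the top detected gene of each list is named. Of the mesenchymal markers 14 of 21 lie right of the line, and of the endothelial and lymphocyte markers 0 of 9 each.

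Several mesenchymal genes were among the most abundant of the transcriptome. Of 21 markers, 14 (66.7%) were detected and 7 (33.3%) were at the floor, near the shares of 56.5% and 27.3% over all genes. The calcium binding protein gene S100A6 had 986 to 1387 TPM (median 1324), and the galectin gene LGALS1 averaged 1068 ± 97.9 TPM. VIM, which encodes vimentin, the intermediate filament of mesenchymal cells, had 928, 928, 880, 939, 938 and 905 TPM in libraries 1 to 6. Its mean was 920 ± 23.1 (SD, n = 6), and no library stood far from the rest. The hyaluronan receptor CD44 stood at 252 ± 26.0 TPM and the matrix protein gene SPARC at 242 ± 12.8. Several genes typical of fibroblasts were at the floor. COL3A1, DCN, FAP and PDPN had no exon read, COL1A2 had 2 and POSTN 1, while COL1A1 averaged 2.94 ± 0.468 TPM and the fibronectin gene FN1 3.37 ± 1.09.

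The sequence just upstream of VIM is shown as the start region of the most abundant mesenchymal filament gene in the list, with each CG pair in capitals. It is the 250 bases at chr10:17227991-17228240 of GRCh38.p14 (RefSeq), plus strand, read 5′ to 3′, and it holds 8 CG pairs at a GC content of 46.0%.
VIM: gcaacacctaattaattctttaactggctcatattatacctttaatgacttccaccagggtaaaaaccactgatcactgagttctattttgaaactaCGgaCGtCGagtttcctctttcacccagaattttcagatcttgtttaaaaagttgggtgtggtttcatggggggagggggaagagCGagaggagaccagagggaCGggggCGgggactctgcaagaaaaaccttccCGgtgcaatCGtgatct

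Simple epithelial keratins were present in the same cultures. KRT18 had 952 to 1090 TPM (mean 1047 ± 52.3), a level just above that of VIM, and its partner KRT8 averaged 262 ± 9.67 TPM. KRT80 followed at 86.5 ± 9.49 TPM. Of 54 keratin genes 7 (13.0%) were detected and 37 (68.5%) were at the floor, against 56.5% and 27.3% of all genes. Of 13 epithelial markers, KRT18 and KRT8 among them, 5 (38.5%) were detected, 7 were low and 1 (7.69%) was at the floor. Of 24 claudins 4 (16.7%) were detected and 10 (41.7%) were at the floor. Some other epithelial genes had few reads. CDH1, which encodes E-cadherin, had 4 exon reads over the 6 libraries, EPCAM averaged 0.158 TPM, KRT19 averaged 0.0689 TPM and the epithelial regulator GRHL2 had 1 read. CDH2, which encodes N-cadherin, had 10.0 to 15.9 TPM (mean 12.4 ± 2.27). Among the factors that repress E-cadherin, TWIST2 led with 26.6 ± 3.52 TPM, followed by SNAI1 with 11.9 ± 0.421, ZEB1 with 7.88 ± 2.71, SNAI2 with 3.92 ± 0.675 and TWIST1 with 1.90 ± 0.492. The ranges of TWIST1 and TWIST2 did not overlap, and TWIST1, taken here for the Twist protein that the study assayed, was the scarcer transcript.

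Gene lists of the glioblastoma subtypes gave a graded picture. Of 12 mesenchymal subtype genes 10 were detected, of 8 classical genes 5, of 8 proneural genes 2 and of 4 neural genes 1, set against 56.5% of all genes. The exceptions of the mesenchymal list were CHI3L1, a secreted glycoprotein much used as its marker, with 6 exon reads, and CASP1 at 0.197 TPM. Within the classical list the hedgehog receptor component SMO had 1 exon read, while GLI2, a transcription factor at the end of the same pathway, stood at 7.74 ± 1.45 TPM and its negative regulator PTCH1 at 1.57 ± 0.544. The lists are short and share genes with the marker lists, so they are counts and carry no test.

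Among the cells that surround a tumour, markers of immune and endothelial cells were mostly under 1 TPM. None of 9 lymphocyte and none of 9 endothelial markers was detected, whereas 56.5% of all genes were. At the floor were 7 (77.8%) of the lymphocyte and 2 (22.2%) of the endothelial markers, against 27.3% of all genes. The other endothelial markers, 7 in number, were low. Of 12 microglia and macrophage markers 1 was, CD68, at 21.7 ± 0.629 TPM, a lysosomal protein gene that many cultured cells express. PTPRC, the pan-leukocyte antigen, averaged 0.0157 TPM, and C1QA and C1QB had no exon read. The endothelial genes PECAM1 and CDH5 averaged 0.0170 and 0.0276 TPM. Among 15 defining genes of other organs, 0 were detected, and ALB, INS, GCG, MYOD1 and SFTPC had no exon read. Of 9 pericyte and smooth muscle markers 4 (44.4%) were detected, 3 were low and 2 (22.2%) were at the floor. TAGLN (121 ± 5.22 TPM) and ACTA2 (17.4 ± 0.978), contractile genes of smooth muscle and of stressed fibroblasts, were high. The pericyte receptor PDGFRB averaged 1.58 ± 0.349 TPM, and the pericyte genes KCNJ8 and ABCC9 were at the floor.

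Of 54 tumour suppressor genes, 40 (74.1%) were detected, 6 were low and 8 were at the floor, against 56.5% detected over all genes. CDKN1A, which encodes the cell cycle inhibitor p21, was the most abundant, with 338 to 357 TPM and a mean of 346 ± 6.79. The retinoblastoma gene RB1 had 36.6 to 71.0 TPM (mean 49.7 ± 13.1). Transcript levels do not show whether a gene is mutated. NF1, which restrains RAS, had 7.96, 13.6, 19.4, 11.7, 7.52 and 8.29 TPM in libraries 1 to 6. ATRX, a chromatin remodeller, had 5.75, 9.95, 15.6, 9.64, 6.12 and 5.72 TPM. In both, libraries 2, 3 and 4 stood above libraries 1, 5 and 6 and library 3 was highest, and CDKN1A did not spread in this way.

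**Figure D3:**
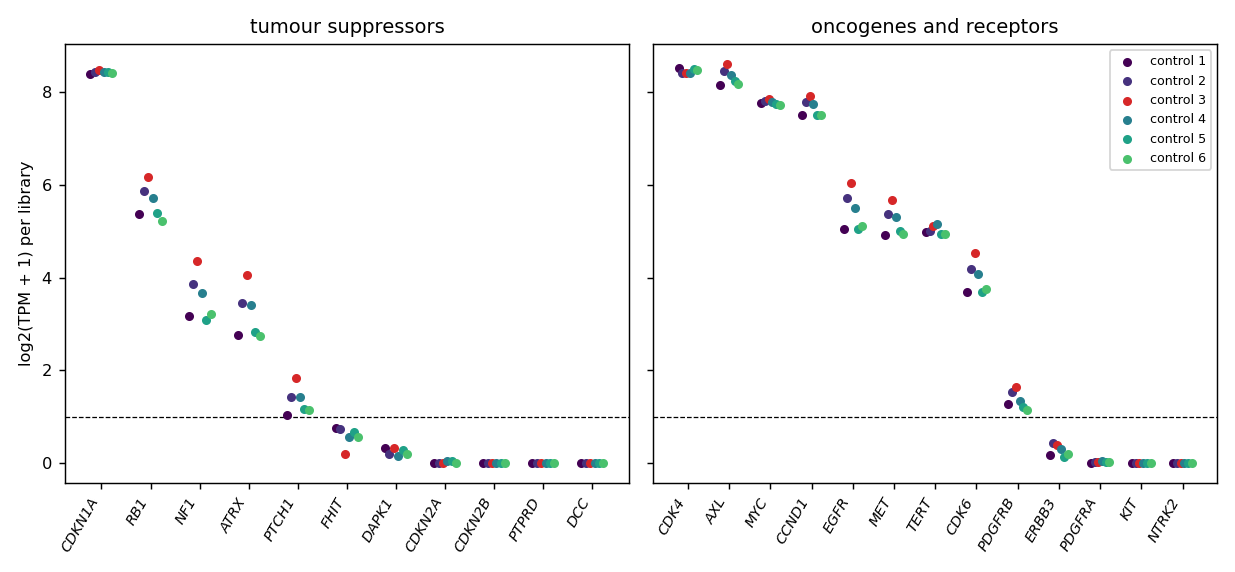
Level of selected tumour suppressors (left) and oncogenes and receptors (right) as log2(TPM + 1) (y axis), with 1 point per control library; the dashed line is 1 TPM and library 3 is red. CDKN1A lies between 338 and 357 TPM, NF1 and ATRX spread widely with library 3 on top, and CDKN2B, PTPRD, DCC, KIT and NTRK2 have no exon read in any library.

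The suppressors at the floor had few reads on exons or introns. CDKN2B, the inhibitor p15, had 0 exon and 0 intron reads. CDKN2A had 2 exon reads, 1 each in libraries 4 and 5, and 0 intron reads, where 3 exon reads would be a mean of 0.0182 TPM. PTPRD, a receptor phosphatase, had 0 exon and 19 intron reads over a very long gene, DCC had 0 and 9, and LRP1B had 1 and 9. EPB41L3 and TUSC3 had 1 exon read each, and TP63 had 3. Among the low members, FHIT, which lies over a common fragile site, had 98 exon reads and 975 intron reads at 0.504 TPM, so transcription of the locus was visible. RARB averaged 0.328 TPM, TP73 0.315, DAPK1 0.187 and CDKN1C 0.0618.

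The 26 genes that start within 2 Mb of CDKN2A on chromosome 9 were read out one by one, since the study states that LN229 lacks this locus. Of these, 5 were detected, 2 were low and 19 were at the floor, and the last count was also 19 when intron reads were added. Over all genes 56.5% were detected and 27.3% were at the floor. MTAP, the methylthioadenosine phosphorylase that is often lost together with CDKN2A, was expressed at 14.8, 18.4, 20.7, 16.1, 14.8 and 14.7 TPM in libraries 1 to 6 (mean 16.6 ± 2.49), with 10545 exon and 1641 intron reads. Its 3′ end lies 30102 bases from the first base of the CDKN2A model. On the far side, DMRTA1, a transcription factor gene 437519 bases past CDKN2B, averaged 3.24 ± 0.522 TPM. FOCAD (17.2 ± 2.68 TPM), KLHL9 (14.8 ± 2.92) and MLLT3 (1.55 ± 0.249) made up the rest of the detected genes. The silence of CDKN2A and CDKN2B was hence bounded on both sides by transcribed genes. Of 16 interferon genes in the window 15 were at the floor, as interferon genes are in most unstimulated cells, and IFNE had 17 exon reads. AL359922.1, a model that spans from the MTAP start past CDKN2A, had 0 exon reads and 1 intron read. Low counts alone do not show whether a gene is deleted or silent.

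**Figure D4:**
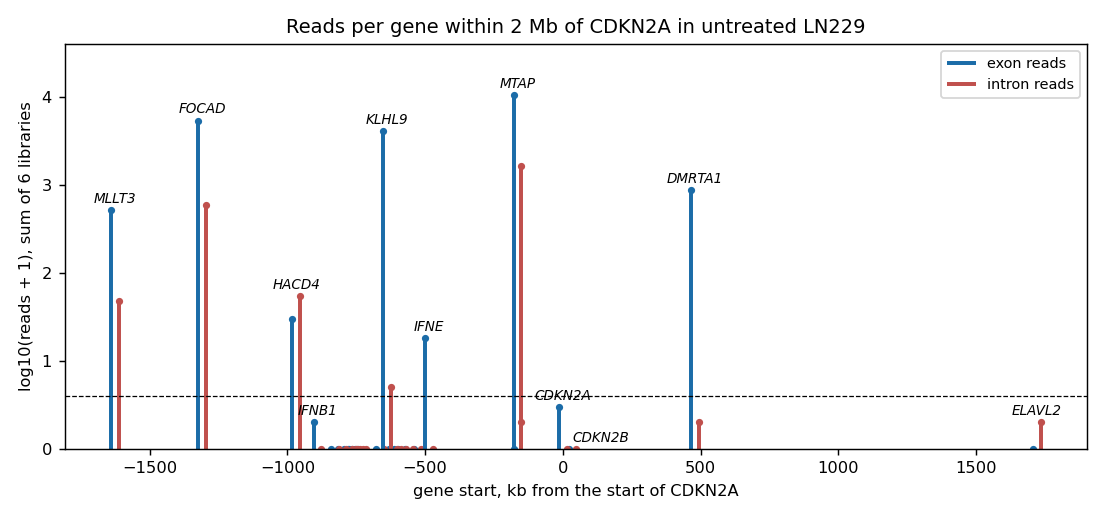
Exon reads (blue) and intron reads (red) of each gene within 2 Mb of CDKN2A, as log10(reads + 1) summed over the 6 control libraries (y axis), by the distance in kb of the gene's start from that of CDKN2A (x axis); the 2 bars of a gene are set apart sideways so that both can be seen, and the dashed line is 3 reads. MTAP and DMRTA1 stand on either side of CDKN2A and CDKN2B, which stay under the line with 2 and 0 exon reads.

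The sequences upstream of MTAP, CDKN2A and CDKN2B are shown because the expressed and the silent genes of the locus are neighbours. Each is the 250 bases before the RefSeq start, 5′ to 3′ on the strand of the gene, with CG pairs in capitals. MTAP lies on the plus strand at chr9:21802386-21802635, CDKN2A on the minus strand at chr9:21995325-21995574 and CDKN2B on the minus strand at chr9:22009306-22009555 (GRCh38.p14). They hold 11, 24 and 18 CG pairs.
MTAP: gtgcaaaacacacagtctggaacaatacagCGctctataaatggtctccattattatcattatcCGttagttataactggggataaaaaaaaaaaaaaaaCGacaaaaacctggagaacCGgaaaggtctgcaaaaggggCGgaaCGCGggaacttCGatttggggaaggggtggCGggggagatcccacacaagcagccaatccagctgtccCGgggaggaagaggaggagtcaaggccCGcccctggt
CDKN2A: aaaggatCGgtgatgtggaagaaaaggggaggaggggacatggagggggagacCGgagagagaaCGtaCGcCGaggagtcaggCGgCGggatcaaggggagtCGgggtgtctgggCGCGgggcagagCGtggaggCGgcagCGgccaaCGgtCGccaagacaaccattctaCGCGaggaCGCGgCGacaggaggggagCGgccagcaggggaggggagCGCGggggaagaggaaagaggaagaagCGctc
CDKN2B: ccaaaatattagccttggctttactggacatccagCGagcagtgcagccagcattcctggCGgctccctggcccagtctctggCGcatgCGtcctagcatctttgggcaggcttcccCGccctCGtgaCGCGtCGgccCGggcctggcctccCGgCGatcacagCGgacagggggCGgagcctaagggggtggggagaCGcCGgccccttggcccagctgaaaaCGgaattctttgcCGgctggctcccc
The TATA box letters TATAAA occur in the MTAP sequence and in 9.71% of 15084 promoters of this table. The start used for CDKN2A is the outermost one of RefSeq, which lies 23 bases from the gene start in the deposited tables.

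Of 45 oncogenes and growth factor receptors 32 (71.1%) were detected, 9 were low and 4 were at the floor, against 56.5% detected and 27.3% at the floor over all genes. CDK4, the kinase that CDKN2A would inhibit, led with 341 to 368 TPM (mean 352 ± 11.8), and its partner CCND1 averaged 203 ± 25.9. The receptor AXL, prominent in mesenchymal cells, had 285 to 391 TPM (mean 325 ± 41.3). The survival genes BCL2L1 and MCL1 averaged 265 ± 11.6 and 224 ± 21.8 TPM, and MYC 220 ± 6.90. EGFR had 32.1 to 65.3 TPM (median 39.1) and MET 29.4 to 50.5 (median 34.7), both highest in library 3. The receptor genes KIT and NTRK2 and the MYC relative MYCN had no exon read, and ERBB4 had 2.

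All 12 telomere genes and all 22 proliferation genes were detected, against 56.5% of all genes. TERT, the catalytic subunit of telomerase, stood at 29.6 to 34.5 TPM (mean 31.6 ± 1.98), although 49.1% of its reads fell in introns. The telomerase partners NOP10, NHP2 and DKC1 averaged 475 ± 47.4, 345 ± 29.2 and 273 ± 17.1 TPM. Among proliferation genes, the thymidylate synthase gene TYMS stood at 826 ± 19.2 TPM and the cyclin gene CCNB1 at 542 ± 19.8. MKI67, which encodes the Ki-67 antigen, had 97.6, 153, 200, 133, 93.4 and 106 TPM in libraries 1 to 6. Here too libraries 2, 3 and 4 stood above libraries 1, 5 and 6, whereas PCNA ranged from 291 to 320 TPM.

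Of 9 genes taken for the proteins that the study assayed, 7 (77.8%) were detected, against 56.5% of all genes. TFAM, the mitochondrial transcription factor, had 59.3 to 84.6 TPM (mean 69.9 ± 10.4). PPARGC1A, the coactivator PGC-1α that drives mitochondrial biogenesis, had 1 exon and 1 intron read in all 6 libraries together, where 3 exon reads would be 0.00681 TPM. The paper reports PGC-1α protein in LN229 by Western blot, whereas the counts here are of RNA, and the difference was not tested. MGMT, the repair gene whose silencing sensitises glioblastoma to temozolomide, had 0 exon reads and 1 intron read, where 3 exon reads would be 0.0132 TPM. Its transcript was therefore not detectable at this depth. ACTN4 and ACTN1, which encode actinins of the cortical cytoskeleton, averaged 407 ± 45.0 and 251 ± 31.4 TPM.

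The MGMT start region is shown because methylation of CG pairs in this gene's promoter is the clinical test of its silencing. It is the 250 bases at chr10:129466991-129467240 of GRCh38.p14, plus strand, from RefSeq, with CG pairs in capitals. It held 36 CG pairs at a GC content of 80.4%. The median over 15084 promoters of 300 bases, which include 50 bases past the start, was 22. No methylation was measured here.
MGMT: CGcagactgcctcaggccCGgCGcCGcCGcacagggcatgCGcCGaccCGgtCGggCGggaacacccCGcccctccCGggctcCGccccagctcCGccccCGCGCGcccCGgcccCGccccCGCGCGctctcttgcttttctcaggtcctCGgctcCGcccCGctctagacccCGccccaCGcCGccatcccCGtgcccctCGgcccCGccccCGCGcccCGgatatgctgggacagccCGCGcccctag

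HOX genes, which give cells their position along the body axis and are silent in the normal forebrain, were expressed in part. Detected were 3 of 11 genes of the A cluster, 7 of 10 of B, 7 of 9 of C and 4 of 9 of D, against 56.5% of all genes. HOXB4 led with 23.1 to 25.8 TPM (mean 24.1 ± 1.03), followed by HOXB9 (22.6 ± 0.901), HOXB7 (22.2 ± 2.00), HOXB6 (21.2 ± 1.37) and HOXC10 (19.99 ± 1.31). The ranges of HOXB4, HOXB9 and HOXB7 overlapped, and their order within each library was not tested. In the A cluster HOXA10 was highest at 9.99 ± 0.504 TPM, and in the D cluster HOXD4 at 13.3 ± 2.12. Clusters were not active end to end. HOXD9, HOXD10 and HOXD11 were at the floor between HOXD8 (3.65 ± 0.438 TPM) and HOXD13 (2.39 ± 0.471), and HOXC12 was at the floor next to HOXC13 (6.65 ± 0.448). Forebrain factors were present beside them. LHX2, a factor of the forebrain and of other tissues, stood at 13.9 ± 0.807 TPM, and ZIC1, a factor of the dorsal neural tube, at 12.05 ± 0.931. The forebrain factors OTX2 and NKX2-1 had no exon read, and neither had NEUROG1 and NEUROD1. HOX genes and LHX2 were thus transcribed in the same cultures, and these few genes do not give the line a position.

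**Figure D5:**
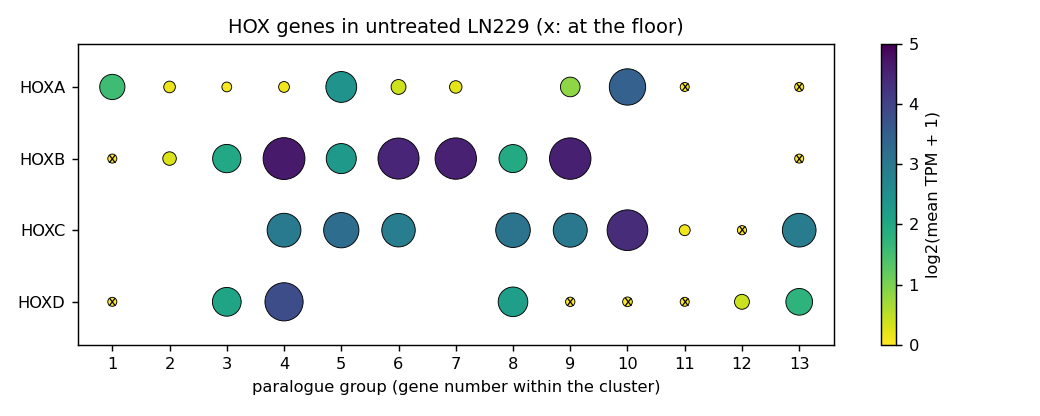
Level of the HOX genes, with 1 row per cluster (y axis) and the gene number within the cluster (x axis); the size and colour of a point give log2(mean TPM + 1) over the 6 control libraries and a cross marks a gene at the floor. HOXB4, HOXB6, HOXB7, HOXB9 and HOXC10 are the strongest, and HOXD9 to HOXD11 carry crosses.

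Other families of developmental factors were expressed in part, against 56.5% of all genes. Of 19 SOX genes 5 were detected, SOX9 first, then SOX12 at 10.2 ± 0.602 TPM and SOX13 at 9.43 ± 0.900. Of 6 GATA genes 3 were detected. GATA2, a factor of blood and vessel lineages, stood at 16.8 ± 0.942 TPM, GATA3 at 6.68 ± 0.502 and GATA6 at 3.19 ± 0.368, while GATA1, GATA4 and GATA5 were at the floor. Of 9 PAX genes, PAX8 (12.5 ± 0.648 TPM) and PAX6 were detected. PAX8 drew 60.01% of its reads from introns.

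Cancer-testis antigens, normally limited to germ cells, were silent apart from a few of very high level. Of 94 genes 6 (6.38%) were detected and 72 (76.6%) were at the floor, against 56.5% and 27.3% of all genes. PAGE1, on the X chromosome, had 2117, 1793, 1608, 1815, 2030 and 2045 TPM in libraries 1 to 6, a mean of 1901 ± 194, and thus stood above vimentin in every library. SSX1 averaged 265 ± 5.49 TPM and MAGEA11 67.3 ± 3.09. SSX2 had no exon read. SSX4 and SSX4B are near-identical copies with no uniquely placed read, so the split between them is arbitrary. SPANXC averaged 1.25 TPM from 25 reads. Expression of a handful of such genes against a silent family was the pattern in all 6 libraries.

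PAGE1 is shown as the start region of the strongest germ-line gene of the line. The 250 bases lie on the minus strand at chrX:49695985-49696234 (GRCh38.p14, RefSeq) and hold 9 CG pairs, in capitals, at a GC content of 58.4%.
PAGE1: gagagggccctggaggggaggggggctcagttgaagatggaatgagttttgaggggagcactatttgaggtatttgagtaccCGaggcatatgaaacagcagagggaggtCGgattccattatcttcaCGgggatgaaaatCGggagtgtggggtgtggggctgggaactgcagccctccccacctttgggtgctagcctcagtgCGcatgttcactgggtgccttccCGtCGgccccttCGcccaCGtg

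Germ-line genes were not the only ones out of their usual lineage, since the globin locus on chromosome 11 was also read. HBE1, the embryonic beta-like globin, had 108 to 124 TPM (mean 118 ± 6.66), and HBG2, a fetal one, 14.1 ± 1.65. The adult gene HBB had 1 exon read. The neighbouring olfactory receptor genes OR51B5 and OR51B4 stood at 55.3 ± 10.7 and 26.2 ± 6.37 TPM. Only 4 of 402 olfactory receptor genes (0.995%) were detected and 380 (94.5%) were at the floor, against 56.5% and 27.3% of all genes. The gene models of this stretch overlap, with 64.2% of HBE1 and 55.8% of OR51B5 reads in introns, so that reads could not be assigned to 1 of these genes with certainty.

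Genes of antigen display on HLA class I were all detected, 13 of 13, against 56.5% of all genes. Of 11 class II genes 2 (18.2%) were detected, 8 were low and 1 was at the floor. The class II count was 5 at a mean of at least 0.5 TPM and 0 at an RPKM of at least 1. B2M, the light chain of class I, stood at 433 ± 8.79 TPM, HLA-B at 194 ± 9.71 and HLA-C at 181 ± 10.7. CIITA, the master regulator of class II, averaged 0.355 TPM, and the invariant chain CD74 averaged 0.223. Of 14 checkpoint ligands 8 (57.1%) were detected, near the 56.5% over all genes. PVR had 53.9 to 71.7 TPM, TNFSF9 56.0 to 66.5 and NECTIN2 56.6 to 61.1. These ranges overlapped, and the order within each library was not tested. CD274, which encodes PD-L1, had 42.8 to 59.3 TPM (mean 49.5 ± 6.58). IDO1 had 1 exon read.

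Of 30 cytokine and chemokine genes 10 (33.3%) were detected, 10 were low and 10 (33.3%) were at the floor. Over all genes 56.5% were detected and 27.3% were at the floor. MIF was the highest at 1262 ± 156 TPM, with 53.3% of its reads placed uniquely. The IL6 family members IL11 and LIF averaged 99.0 ± 2.70 and 75.1 ± 8.22 TPM, TGFB1 averaged 90.3 ± 3.83 and IL6 itself 2.16 ± 0.242. Several chemokine and cytokine genes had few or no exon reads. Among chemokines, CXCL8 had 14 exon reads, and CXCL1, CXCL10, CXCL12 and CCL20 had none, although CCL20 had 26 intron reads. Among cytokines, TNF had 3 exon reads and IL33 had none. The growth factor HGF, the ligand of MET, also had none.

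Membrane excitability genes were mostly under 1 TPM, whereas 56.5% of all genes were detected. Of 18 ionotropic glutamate receptor genes GRIN2C alone was detected, at 1.94 ± 0.219 TPM, and of 14 voltage-gated sodium channel genes SCN8A alone, at 1.12 ± 0.342. The sodium channel count was 2 without library 1 or without library 4, 3 at a mean of at least 0.5 TPM and 0 at an RPKM of at least 1. Of 24 GABA-A and glycine receptor genes 2 were detected, GLRB (4.98 ± 0.533 TPM) and GABRG3 (1.63 ± 0.309). Potassium channels had 13 of 95 detected, led by the large calcium-activated channel KCNMA1 (12.8 ± 0.450 TPM) and by KCNN4 (9.62 ± 1.21). Of 53 clustered protocadherins, cell recognition genes of neurons, PCDHGC3 alone was detected, at 58.8 ± 7.87 TPM. Of 21 connexins 7 were, among them GJA1 and GJC1 (15.1 ± 2.15 TPM).

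Of 15 genes for handling glutamine and glutamate 14 (93.3%) were detected, with SLC1A2 the exception, against 56.5% of all genes. The count was 13 without library 3 and 10 at an RPKM of at least 1. The amino acid transporters SLC3A2 and SLC1A5 stood at 266 ± 8.20 and 253 ± 6.04 TPM, and the glutamate dehydrogenase gene GLUD1 at 109 ± 9.46. SLC7A11, the cystine and glutamate exchanger that pairs with SLC3A2, stood at 6.62 ± 1.63 TPM.

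Where an enzyme has forms for different tissues, the widespread form prevailed. The hexokinase genes HK1 and HK2 averaged 84.7 ± 8.40 and 41.8 ± 6.85 TPM, and HK3, known from blood cells, averaged 0.0459. LDHA and LDHB averaged 1490.0 ± 38.4 and 1443 ± 54.7 TPM, and their ranges overlapped, with 38.1% of LDHB reads placed uniquely. The enolase genes ENO1 and ENO2 averaged 1593 ± 21.2 and 41.9 ± 2.88 TPM. SLC2A1, the widespread glucose transporter, averaged 222 ± 15.2 TPM, against 25.6 ± 3.15 for the neuronal form SLC2A3. CKB, the creatine kinase abundant in brain, averaged 1.68 ± 0.474 TPM. RAC2, a small GTPase known from blood cells, stood at 151 ± 3.55 TPM beside RAC1 at 416 ± 13.6. The aldolase gene ALDOA, at 1420 ± 48.1 TPM, had 5.65% uniquely placed reads and its level is uncertain.

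Of 13 imprinted genes 5 (38.5%) were detected, against 56.5% of all genes. GNAS stood at 137 ± 1.75 TPM, the retrotransposon-derived PEG10 at 60.8 ± 16.6 and SNRPN at 56.3 ± 1.82 with 49.3% uniquely placed reads. PEG3, NDN and MAGEL2 had no exon read, DLK1 had 2 and MEST 3. NDN, MAGEL2 and SNRPN are neighbours in the Prader-Willi region of chromosome 15, so 1 member was expressed beside 2 without a read.

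Detected and floor genes differed in the base composition of their promoters. A promoter was called CpG-rich when its 300 bases around the start held at least 50% GC and at least 0.6 of the CG pairs that its base composition predicts. This held for 83.3% of 9041 detected genes, 45.6% of 2246 low genes and 30.6% of 3797 floor genes with a RefSeq promoter. The letters TATAAA ran the other way, in 5.32% of detected, 11.3% of low and 19.2% of floor promoters. GGGCGG, the letters of the GC box, was present in 72.0%, 50.9% and 34.8% of the 3 classes, and the letters CCAAT in 37.3%, 33.1% and 37.0%. Both strands were searched, and a match is a description and not a binding site.

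Silence was also clustered along chromosomes. On chromosome 11, 66 genes in a row from OR4B1 to APLNR, 57 of them olfactory receptors, had no detected member and 1 exon read among them. On chromosome 5, 32 genes from PCDHA1 to PCDHB15 had no detected member. Zinc finger genes named ZNF on chromosome 19, which sit in large clusters, were detected in 119 of 243 cases (49.0%) and at the floor in 90 (37.0%). Those on other chromosomes were detected in 194 of 262 cases (74.0%), with 45 (17.2%) at the floor. Over all genes 56.5% were detected and 27.3% were at the floor, so the detected share on chromosome 19 lay nearer to that of all genes. A run of 37 genes from ZNF14 to ZNF726 on chromosome 19, 35 of them ZNF genes, had no detected member. By chromosome, the share of detected genes ran from 43.2% on X to 65.0% on 16.

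Intron reads gave a second view of the genes. Over 10085 genes with a mean of at least 100 exon reads, the median share of intron reads was 6.59%, and 148 genes had 50% or more. TAOK3, a stress kinase gene, was the most extreme, with 40278 intron reads beside 1216 exon reads (97.1%). POLR2A, the largest subunit of RNA polymerase II, had 82.2%, and its exon model covers 24.9% of the exon length that GENCODE gives. How many of its intron reads fell on exons outside the model was not tested, and of the 148 genes 27 had a model under 50% of the GENCODE length. Among genes at the floor, 19 had at least 500 intron reads. SLCO5A1, a solute carrier gene, had 1 exon read and 23389 intron reads. PDE3A, a phosphodiesterase gene, had 1 and 10410, with between 894 and 2545 per library. Of the 19 genes 11 overlap another model. For these genes absence of exon reads does not mean absence of reads over the gene.

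The genes that varied most among the 6 libraries, at 10 TPM or more, were mostly ones with shared sequence. H2AC18, a histone gene with an identical copy, ranged from 0 to 33.9 TPM with no uniquely placed read, and its copy H2AC19 from 9.38 to 54.2. Of genes with unique reads POLR2A led, with 42.4, 93.3, 147, 84.5, 35.0 and 41.5 TPM in libraries 1 to 6 (coefficient of variation 39.4%). The chromatin remodeller SRCAP had 13.2 to 43.0 TPM, but only 10.1% of its reads were unique. The polymerase III factor BDP1 (8.85 to 27.5 TPM) and the kinase SMG1 (11.1 to 32.1) followed, both named after their values had been seen. In POLR2A, SRCAP, BDP1 and SMG1 library 3 was highest, and libraries 2, 3 and 4 stood above libraries 1, 5 and 6 without overlap, as on the first component.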

How the data were processed

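Per the paper's methods and the labels, LN229 RNA was extracted with TRIzol and sequenced from SMARTER mRNA-Seq libraries, and the authors deposited 1 table per library. Each table held 21462 rows with read counts on exons, introns and junctions, unique reads, and the authors' TPM and RPKM values. The deposited TPM values were used as levels, the deposited counts for reads, introns and the test, and the deposited RPKM values as an alternative. Neither the aligner nor the use of strand is given in the sources used here. Reads from overlapping or antisense genes could therefore not be separated. The submitters' processing notes name GRCm38 (mm10), a mouse build, whereas 21363 of the gene identifiers occur in human GENCODE 29. Coordinates of promoters are those of RefSeq GRCh38.p14.

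Rows of the same name were summed (16 rows), which left 21446 genes, of which 1457 without an exon model were not analysed. Only the 6 control libraries were read. A gene was detected at a mean TPM of at least 1 and at the floor at 3 exon reads or fewer over the 6 libraries. Means carry the SD over 6 libraries, which measures the spread between cultures together with that of RNA and library preparation. Variation was tested in edgeR 4.0.16 (R 4.3.3) on counts of genes with a mean of at least 10 exon reads: a Poisson fit with TMM offsets, its deviance against chi-square with 5 degrees of freedom, and Benjamini-Hochberg adjustment at 0.05. This test and the edgeR dispersion were tried on simulated counts. The other steps used Python 3.11.15, pandas 2.3.3, numpy 2.4.6 and matplotlib 3.10.9. A dispersion from DESeq2 1.42.0 was an alternative, as were other thresholds and leaving out each library.

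Members and gene lists were chosen with earlier results of these data known. Named were the 20 most abundant genes, in each list the 3 highest detected members and, in lists of up to 20, those at the floor, all genes within 2 Mb of CDKN2A, suppressors under 1 TPM, the assayed proteins, the 10 most variable genes at 10 TPM or more and the 10 richest in introns at 100 exon reads or more, with fewer where room was short. Long noncoding RNAs were not analysed here, and some list members are not reported here. Promoter windows are 250 bases before the start, and motif shares use 300 bases.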

Additional observations from a re-analysis of the deposited data

Results flagged for a closer look

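Over 156 genes named in the text and 12 measures of the libraries, 3 groups of 6 values had an end value far from the others. Chance alone gives about 1 in 20 groups, so these 3 are fewer than chance would give and none stands out. CKB had 2.59 TPM in library 5, against a median of 1.53. GABRG3 had 2.24 TPM in library 3, against a median of 1.54. TP73 had 0.129 TPM in library 3, against a median of 0.335. All 3 genes are of low level.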

How the results depend on the processing

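Detected genes numbered 11936 at a mean of at least 0.5 TPM, 10550 at 2 TPM, 10100 at an RPKM of at least 1 and 10947 where every library had to reach 1 TPM, against 11289. Leaving out each library in turn gave 11253 to 11307. Genes at the floor numbered 3689 with no exon read, 6456 at 10 reads or fewer and 4267 with intron reads added, against 5451. The 20 most abundant genes held 10.9% of exon reads in place of 20.04% of TPM, and 13.6% of TPM without mitochondrial genes; TPM divides by length and these transcripts are short. Genes varying beyond counting noise numbered 5987 to 7406 on leaving out a library, and 5987 was the count without library 3. The biological coefficient of variation was 7.92% to 12% on leaving out a library and 7.16% as the median of gene-wise DESeq2 dispersions. The intron share was 5.52% to 6.53% under its alternatives. Of 480 list counts, 21 in 15 lists moved by more than 1.5 times, 13 of them with RPKM. At an RPKM of at least 1, detected members fell to 7 potassium channels, 4 connexins, 2 olfactory receptors and 0 ionotropic glutamate receptors. At 0.5 TPM they rose to 9 olfactory receptors, 3 ionotropic glutamate receptors and 3 clustered protocadherins, and 1 of the genes of other organs passed. No paired analysis was possible because no groups were compared. Depth limits genes under about 0.027 TPM, and reads of near-identical copies limit the genes named as not unique.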

Other observations

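Intron reads of SLCO5A1, a gene with 1 exon read, were uneven among the libraries, with 1957, 3464, 3183, 6664, 3085 and 5036 in libraries 1 to 6. Those of PDE3A were 894, 1945, 1382, 2315, 1329 and 2545. Both were lowest in library 1, and their order was not that of the libraries on the first component. TAOK3 gave 5509 to 7668 intron reads, with the lowest number in library 3. These genes were followed after their totals had been seen, and nothing was tested.

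The placenta and hypothalamus peptide gene KISS1, known as a metastasis suppressor, stood at 780 to 1087 TPM (median 947, mean 936 ± 107), and HMGA1, an architectural chromatin gene of proliferating cells, at 953 to 990 TPM (mean 974 ± 12.6). IGFBP4, a binding protein of insulin-like growth factors, stood at 819 to 897 TPM (mean 861 ± 26.0). All 3 were picked after their levels had been seen.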
